A study of Mus musculus with 20 samples.

Results

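The heat shock proteins and their DnaJ cochaperones were examined in cultured mouse dorsal root ganglion (DRG) neurons, to ask whether electrical stimulation left the mark of protein stress in the cultures. The genes were chosen by a rule on their names, set with earlier results of these data known. Every gene name on the array that begins with Hsp and a letter from a to e or a digit, or with Dnaja, Dnajb or Dnajc, was taken. This gave 72 of the 30222 gene names, carried by 108 different probe sequences on 126 spots. There were 3 genes of the Hsp90 family, 12 of the Hsp70 family, the mitochondrial pair Hspd1 and Hspe1, 8 small heat shock proteins, 4 DnaJ proteins of class A, 13 of class B and 28 of class C, and 2 genes (Hspbp1 and Hspbap1) whose proteins bind Hsp70 or Hspb1. Hspa1b, the near identical neighbour of Hspa1a, is not analysed here, and a signal for Hspa1a may hold transcripts of both.

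Chaperones of the Hsp70 family bind unfolded stretches of other proteins and release them through cycles of ATP hydrolysis. DnaJ proteins carry a J domain that speeds this hydrolysis, and each directs Hsp70 to particular clients or compartments. Hsp90 acts on proteins that are nearly folded, Hsp60 with its lid Hsp10 folds proteins inside mitochondria, and small heat shock proteins hold unfolded proteins without using ATP. When unfolded proteins build up in the cytosol, heat shock factor 1 binds heat shock elements, inverted repeats of GAA and TTC, in front of a few of these genes and raises Hspa1a, Dnajb1, Hspb1 and others within hours. The endoplasmic reticulum (ER) has its own set (Hspa5, Hsp90b1, Dnajb9, Dnajb11, Dnajc3), which is raised by the unfolded protein response.

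The neurons came from embryos of NIH Swiss mice at embryonic day 13.5. They are labelled as DRG neurons, although the growth protocol names spinal cords as the tissue. They grew for several weeks in chambers with separate compartments, after an early treatment with fluorodeoxyuridine against dividing non-neuronal cells, and were moved overnight, before stimulation, to medium without nerve growth factor and serum. All groups shared these steps. The 18/1 pattern delivered 18 action potentials every 1 min and the 90/5 pattern 90 every 5 min, so that both gave the same number over time, as biphasic pulses of 6 V and 0.2 ms through platinum electrodes. Each pattern was given for 2 hr or 5 hr, and the unstimulated neurons were handled in the same way without current.

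Each of the 5 conditions had 4 samples on 2 arrays, described as biological replicas from pooled cultures, 1 in each colour (Cy3 and Cy5) of an array. The p-values therefore measure the spread between these samples, which may be partly technical. On slide 1, arrays 1 and 2 were unstimulated and arrays 3 and 4 were 18/1 2 hr. On slide 2, arrays 5 and 6 were 18/1 5 hr and arrays 7 and 8 were 90/5 2 hr, and on slide 3, arrays 9 and 10 were 90/5 5 hr. Condition and slide thus cannot be told apart except between 18/1 2 hr and unstimulated neurons, and between 90/5 2 hr and 18/1 5 hr. Values are log2 signals, after subtraction of background and normalization, of the probe with the highest mean signal for each gene. They are not comparable between genes. Genes are named as called where limma's p, after Benjamini-Hochberg adjustment over all genes tested in that comparison, fell under 0.05.

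Slide 2 stood apart from the other slides. Its samples held 45 to 14642 spots marked as non-uniform and 840 to 2800 marked as saturated, against 6 to 36 and 0 to 486 on slide 1, and 37 to 85 and 0 on slide 3. Between 5 and 17 of the 72 chaperone genes had a saturated spot in each sample of slide 2, against 0 to 4 on slide 1 and 0 on slide 3. For probes that were printed repeatedly, the median SD between the spots of a probe was 0.22 to 0.57 in the samples of slide 2. It was 0.17 to 0.30 and 0.18 to 0.25 on slides 1 and 3. Correlation between samples of one condition, across genes, was 0.955 to 0.994. The part that these marks had in the differences below was not tested, and the results for 18/1 2 hr and 90/5 5 hr are also given without slide 2.

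Of the 72 chaperone genes, 43 passed a filter that asked for a signal at least 2 times the background and no mark for non-uniformity in all 20 samples, as did 10355 gene names in all. All 3 Hsp90 genes, 9 of 12 Hsp70 genes, Hspd1 and Hspe1, 3 of 8 small heat shock proteins, 3 of 4 class A, 9 of 13 class B and 13 of 28 class C DnaJ genes passed, and Hspbp1 of the binding proteins. Of the 29 others, 15 were bright enough in every sample and failed through a mark for non-uniform spots alone, 14 were dim in at least 1 sample, and 0 were dim in all 20. A looser filter, which asked for all 4 samples of at least 1 condition, let 64 genes through. The remaining 8 (Dnajb7, Dnajb8, Dnajb13, Dnajc5g, Dnajc22, Dnajc28, Hspb3 and Hspbap1) passed neither and are not tested.

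At 18/1 2 hr and at 90/5 5 hr the chaperone genes lay close to their unstimulated levels. In 18/1 2 hr neurons 0 of the 43 genes were called by limma, against 0.0193% of all genes tested (2 of 10355), and the differences ran from -0.50 to 0.63 with a median of -0.01. In 90/5 5 hr neurons 0 of 43 were called, against 0.0676% of all genes (7 of 10355), and the differences ran from -0.77 to 0.44 with a median of -0.03. At an unadjusted p under 0.05 there was 1 chaperone gene in each of these comparisons, Dnajb5 in both, against 0.888% and 3.69% of all genes. The t-test of the methods gave 3 genes at 18/1 2 hr (Dnajb5, Dnajc7 and Dnajc24) and 2 at 90/5 5 hr (Dnajb5 and Dnajb14), against 214 and 570 of all 10355 genes. The 95% interval of the difference stayed within 1 log2 unit on either side for 35 of 43 genes at 18/1 2 hr and for 34 of 43 at 90/5 5 hr, so for those genes a change of more than 2-fold lies outside the interval. Samples that did not overlap between groups were found for 2 of 43 genes at 18/1 2 hr, where 6.14% of all genes did not overlap, and for 7 of 43 at 90/5 5 hr, where 11.6% did not.

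In 18/1 5 hr neurons 18 of 43 chaperone genes were called, 8 higher and 10 lower. That is 41.9%, against 44.4% of all genes tested (15.0% higher and 29.5% lower), so the share among chaperones is near that of the array as a whole. The median difference was -0.16, and -0.23 over all genes. In 90/5 2 hr neurons 2 of 43 were called, 1 higher and 1 lower, against 6.97% of all genes, with a median of 0.05 and of -0.08 over all genes. The groups did not overlap for 19 of 43 genes at 18/1 5 hr (53.7% of all genes) and for 12 of 43 at 90/5 2 hr (26.3% of all genes). When each sample was centred on its median in place of the normalization used here, the median of all genes at 18/1 5 hr moved from -0.23 to -0.82, and the 18 calls (8 higher, 10 lower) became 25 (3 higher, 22 lower), with 52.5% of all genes called. A gene's difference at 18/1 5 hr is therefore also given below relative to the median of all genes where the scaling matters. The count of 18 also rests on single arrays, since it was 9 without array 1 and 9 without array 2, both unstimulated, where the share of all genes called fell to 24.8% and 26.1%. The count of 2 at 90/5 2 hr was 0 when array 1, 2 or 8 was left out, 5 when array 5 was, 7 when array 6 was and 12 when array 7 was. The share of all genes called moved with it, to 1.16%, 0.840% and 1.75% without array 1, 2 or 8 and to 15.7%, 15.8% and 27.0% without array 5, 6 or 7.

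**Figure D1:**
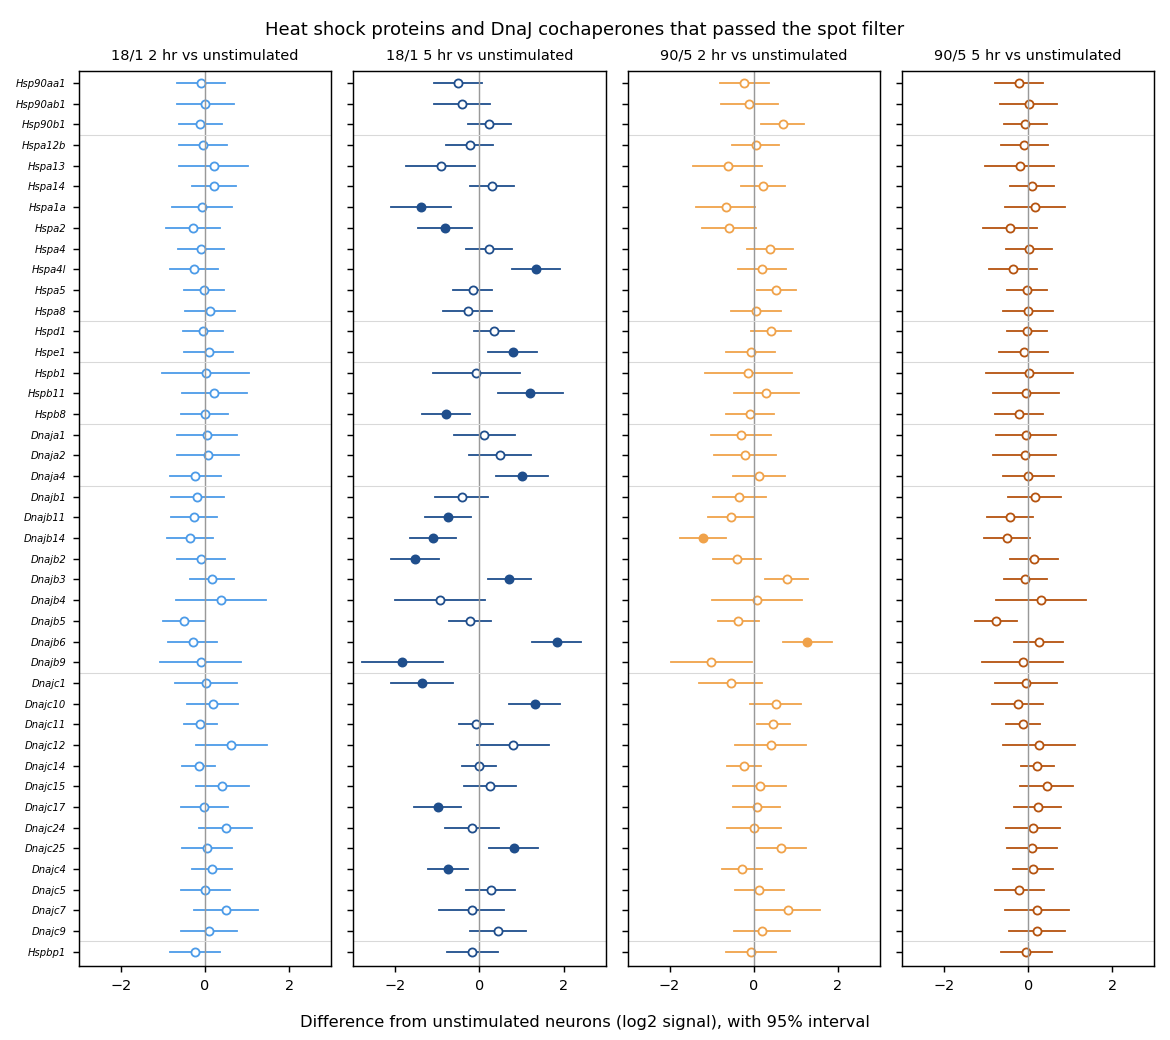
Difference in log2 signal from unstimulated neurons for each of the 43 chaperone genes tested, by condition, with 95% intervals from limma; filled points were called at an adjusted p under 0.05. The 18/1 2 hr and 90/5 5 hr panels hold 0 filled points, the 18/1 5 hr panel 18 and the 90/5 2 hr panel 2.

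**Figure D2:**
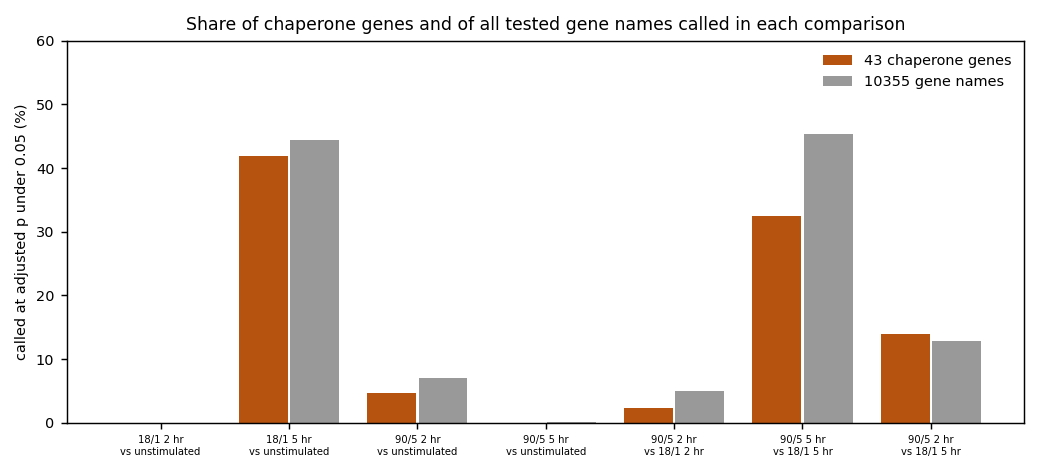
Percent of the 43 chaperone genes and of all 10355 gene names tested that were called in each of 7 comparisons. At 18/1 5 hr against unstimulated neurons the bars reach 41.9% and 44.4%, and at 18/1 2 hr and 90/5 5 hr both lie near 0.

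Hspa1a encodes the stress-inducible Hsp70 and is among the genes that heat shock raises most. The stretch in front of its start site, from RefSeq (GRCm38.p6, chr17:34972197-34972316, minus strand), is printed because it holds a paired heat shock element, in capitals, from base -104 to base -97 relative to the start.
Hspa1a: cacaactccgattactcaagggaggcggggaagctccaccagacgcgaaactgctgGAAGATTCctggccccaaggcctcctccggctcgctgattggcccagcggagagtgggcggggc
In unstimulated neurons Hspa1a measured 8.69, 8.10, 8.50 and 7.99, and in 18/1 2 hr neurons 8.07, 7.88, 8.70 and 8.33. In 90/5 5 hr neurons it measured 8.63, 8.47, 8.44 and 8.36. These 3 groups overlapped, and the inducible Hsp70 was not raised by 2 hr of 18/1 (-0.07, SE 0.34, 95% interval -0.78 to 0.64) or by 5 hr of 90/5 (0.16, interval -0.55 to 0.87) beyond their spread. Hspa1a at 18/1 5 hr measured 6.74 and 6.56 on array 5 and 7.31 and 7.12 on array 6, all below every unstimulated sample. Hspa1a was called lower there, with a measured difference of -1.38 (SE 0.34, adjusted p = 0.0028). Relative to the median of all genes this was -1.15, or -0.74 with each sample centred on its median. Both samples of array 5 were not well above background, so these values do not give the size of the fall. The 90/5 2 hr samples divided by array, with 8.14 and 8.53 on array 7, within the unstimulated range, and 7.19 and 6.73 on array 8, both of them not well above background. The difference was -0.67 (adjusted p = 0.248) with both arrays, which is not an exact size, and 0.02 without array 8. It was called lower without array 7 (adjusted p = 0.00139), where array 8 alone was left for the group, so no size is given.

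Hspa8, the constitutive cytosolic Hsp70, was close to the top of the scanner's range. It measured 16.25, 16.17, 16.08 and 16.18 in unstimulated neurons and 16.08, 16.39, 16.38 and 16.28 at 18/1 2 hr, with a spot marked as saturated in 2 samples of each. Hspa8 at 90/5 5 hr, where no spot was saturated, measured 16.13, 16.26, 15.79 and 16.49. The groups overlapped, and the difference was 0.12 at 18/1 2 hr (interval -0.47 to 0.70) and -0.00 at 90/5 5 hr (interval -0.59 to 0.58). All samples of 18/1 5 hr and 90/5 2 hr were saturated for Hspa8, so its values there only bound its level. At 18/1 5 hr it was called lower with samples centred on their medians and with every sequence used. Saturated spots give no size for this.

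Of the 9 Hsp70 genes tested, Hspa1a and Hspa8 included, 1 was called higher at 18/1 5 hr (Hspa4l) and 2 lower (Hspa1a and Hspa2), where 44.4% of all genes were called. Hspa4l, a relative of the Hsp110 proteins that exchange the nucleotide of Hsp70, measured 13.17, 13.20, 13.14 and 13.32 in unstimulated neurons and 14.72, 14.74, 14.30 and 14.43 at 18/1 5 hr. Every 18/1 5 hr sample was above every unstimulated one, and Hspa4l was called higher (1.34, SE 0.28, adjusted p = 0.000656). As 2 of these samples were saturated, the rise may be larger than measured. After 2 hr of 18/1 it measured 12.81, 12.72, 13.18 and 13.04, and at 90/5 5 hr 12.84, 13.00, 12.55 and 13.01, which are at or below the unstimulated range. Hspa2, known for its part in spermatogenesis, fell by 0.81 (adjusted p = 0.0375) at 18/1 5 hr. Hspa12b, Hspa13, Hspa14 and the brightest sequence of Hspa4 were called in none of the 4 comparisons with unstimulated neurons. Hspa9, the Hsp70 of mitochondria, passed only the looser filter and differed from unstimulated neurons by -0.20, -0.11, -0.31 and -0.25 at 18/1 2 hr, 18/1 5 hr, 90/5 2 hr and 90/5 5 hr, none of them called.

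The 3 Hsp90 genes were called in none of the comparisons with unstimulated neurons. Hsp90aa1, the inducible cytosolic form, measured 16.13, 16.10, 16.05 and 16.18 in unstimulated neurons, 16.00, 16.07, 15.98 and 16.04 at 18/1 2 hr and 15.86, 15.99, 15.54 and 16.17 at 90/5 5 hr. Most of the stimulated samples lay slightly lower, with differences of -0.09 and -0.22 (SE 0.28). Hsp90ab1, the constitutive form, differed by 0.01 and 0.01. Of the 4 samples in each of the unstimulated and 18/1 2 hr groups, 1 was saturated for Hsp90aa1 and 2 for Hsp90ab1, so their differences at 18/1 2 hr are limited by the scanner's ceiling. Both were saturated in every sample of slide 2. There Hsp90aa1 measured 15.91, 15.68, 15.73 and 15.08 at 18/1 5 hr, values that bound its level from below. They gave no call (adjusted p = 0.134), and a call as lower when each sample was centred on its median (adjusted p = 0.000199), with quantile normalization and without the array block. Hsp90ab1 was likewise called lower with centring and with quantile normalization. Relative to the median of all genes the measured values of Hsp90aa1 lay at -0.29 in the first scaling and -1.12 in the second, those of Hspa8 at -0.05 and -1.14 and those of Hsp90ab1 at -0.19 and -1.15, and with saturated spots none of these gives the size of a difference.

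**Figure D3:**
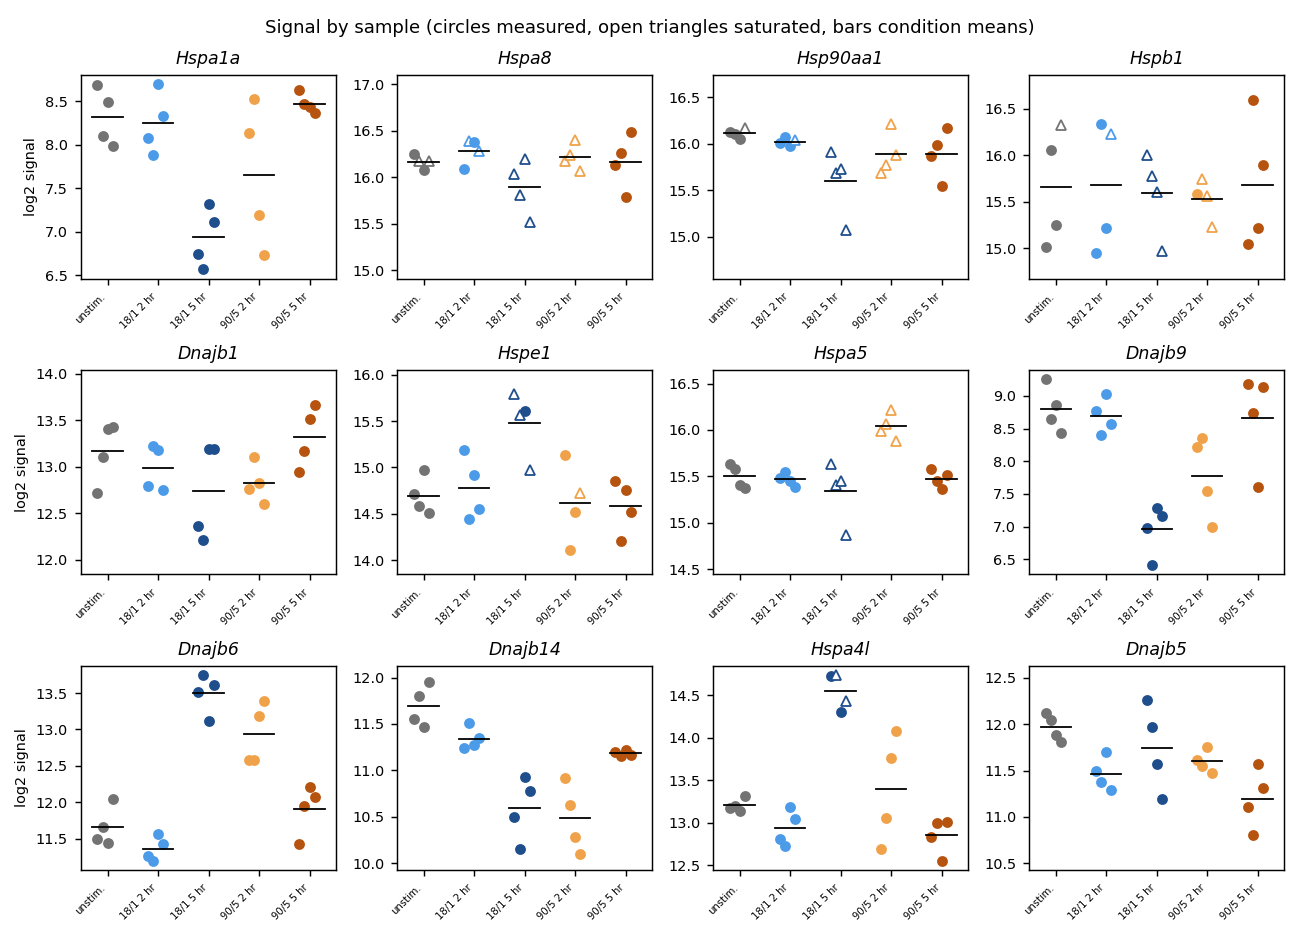
Log2 signal of selected chaperone genes in each of the 20 samples, by condition; circles are measured values, open triangles saturated ones and bars the means of conditions. Hspa1a lies between 6.56 and 7.31 at 18/1 5 hr and between 7.99 and 8.69 in unstimulated neurons, and Dnajb6 between 13.11 and 13.75 against 11.44 and 12.04.

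Hspd1 (Hsp60) and Hspe1 (Hsp10) are read in opposite directions from one shared promoter. Both are among the 179 of 27025 genes (0.662%) whose promoter window holds a heat shock element of 3 units (GAANNTTCNNGAA or TTCNNGAANNTTC, on either strand), a motif found in 3 of the 58 chaperone genes with a RefSeq promoter sequence (5.17%), Dnajb6 being the third. Motifs of 3 units also count as motifs of 2. The stretch is chr1:55088008-55088127 (GRCm38.p6, plus strand), with 2 overlapping matches to the element in capitals.
Hspe1: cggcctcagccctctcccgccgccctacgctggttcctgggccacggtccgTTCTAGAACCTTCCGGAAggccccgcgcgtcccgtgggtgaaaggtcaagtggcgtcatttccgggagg
Hspd1 measured 14.89, 14.78, 14.80 and 14.78 in unstimulated neurons, 14.88, 14.76, 14.90 and 14.49 at 18/1 2 hr and 14.78, 14.76, 14.69 and 14.92 at 90/5 5 hr. The samples of each group lay close together and overlapped, with differences of -0.05 and -0.03 (SE 0.23). Hspe1 measured 14.71, 14.58, 14.98 and 14.50 in unstimulated neurons and 15.79, 15.57, 15.61 and 14.97 at 18/1 5 hr, of which 3 were saturated. The lowest of these overlapped the unstimulated samples, and the rise of 0.79 (SE 0.28, adjusted p = 0.026) went to 0.06 when each sample was centred on its median. Relative to the median of all genes the measured rise was 1.02 in the first scaling and 0.88 in the second, which the saturated spots bound from below. It was not called without array 1, 2, 4 or 5, with adjusted p of 0.0551 to 0.151.

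Among the small heat shock proteins, Hspb1 (Hsp25 of the mouse, abundant in sensory neurons) is a usual marker of heat shock and of nerve injury. Its promoter carries a pair of 2-unit heat shock elements (GAANNTTC or TTCNNGAA, on either strand), a motif present in 17% of all promoters and in 14 of 58 chaperone promoters (24.1%). The stretch below is chr5:135887756-135887875 (GRCm38.p6, plus strand), with both elements in capitals.
Hspb1: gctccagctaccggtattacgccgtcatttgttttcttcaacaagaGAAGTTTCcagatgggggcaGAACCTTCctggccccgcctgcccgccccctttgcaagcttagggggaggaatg
Hspb1 measured 15.01, 16.06, 15.25 and 16.33 in unstimulated neurons, 14.95, 16.34, 15.22 and 16.23 at 18/1 2 hr and 15.04, 16.59, 15.21 and 15.89 at 90/5 5 hr. In each of these groups the Cy5 samples were the higher ones, of which 1 was saturated in the first and in the second group, and the groups overlapped throughout. At 18/1 5 hr it measured 16.00, 15.78, 15.60 and 14.98, all saturated, and at 90/5 2 hr 15.59, 15.74, 15.56 and 15.23, of which 3 were saturated. Neither was called, but with samples centred on their medians Hspb1 at 18/1 5 hr was called lower (adjusted p = 0.0413), and saturated spots give no size for it. The difference was 0.02 at 18/1 2 hr and 0.02 at 90/5 5 hr, but the interval at 18/1 2 hr runs from -1.01 to 1.05, wider than for most of the others. Hspb8, a partner of the cochaperone Bag3, fell by 0.79 (adjusted p = 0.0234) at 18/1 5 hr, where 1 of 4 samples was saturated and the fall may be smaller than measured. Hspb11, a subunit of the intraflagellar transport complex in spite of its name, rose by 1.21 (adjusted p = 0.0125) there. Hspb2 passed only the looser filter and was well above background in all 4 unstimulated samples but in 1 of 4 at 18/1 5 hr, so no size is given for its difference there.

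Dnajb1 (Hsp40), the main J protein partner of the inducible Hsp70 and itself raised by heat shock, was called in no comparison with all arrays in the fit. It measured 12.72, 13.11, 13.40 and 13.43 in unstimulated neurons, 12.79, 13.22, 13.18 and 12.75 at 18/1 2 hr and 12.94, 13.17, 13.51 and 13.67 at 90/5 5 hr. After 5 hr of 18/1 it measured 12.36, 12.21, 13.20 and 13.19, and at 90/5 2 hr 12.76, 13.10, 12.82 and 12.60. All of these groups overlapped the unstimulated one, with differences of -0.18, 0.16, -0.42 and -0.34 in that order (SE 0.30), although at 18/1 5 hr it was called lower without array 6 (-0.88, adjusted p = 0.0161). Dnaja1, a farnesylated cytosolic J protein, differed by 0.04 at 18/1 2 hr and by -0.06 at 90/5 5 hr. Dnaja4 was called higher at 18/1 5 hr (1.01, adjusted p = 0.00853). It went from 13.51, 13.62, 13.21 and 13.51 in unstimulated neurons to 14.76, 14.75, 14.00 and 14.36, with no overlap. As 2 of the latter samples were saturated, the rise may be larger than measured.

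With each gene read by its brightest sequence that passed the filter, Dnajb6 showed the largest rise among the 43 chaperones tested at 18/1 5 hr. Among those 43 it also showed the only rise called at 90/5 2 hr. Dnajb6 is a J protein that keeps glutamine-rich proteins from aggregating. Its promoter stretch is chr5:29735778-29735897 (GRCm38.p6, plus strand), with the heat shock element of 3 units in capitals from base -46 to base -34 relative to the start.
Dnajb6: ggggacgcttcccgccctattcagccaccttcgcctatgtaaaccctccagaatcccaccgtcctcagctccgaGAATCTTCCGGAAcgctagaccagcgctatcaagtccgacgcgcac
Dnajb6 measured 11.50, 11.66, 11.44 and 12.04 in unstimulated neurons and 13.52, 13.75, 13.11 and 13.61 at 18/1 5 hr. The 90/5 2 hr samples measured 12.58, 12.58, 13.18 and 13.39. All samples of both groups were above all unstimulated ones, by 1.84 (SE 0.28, adjusted p = 4.52e-05) and 1.28 (SE 0.28, adjusted p = 0.00743). After 2 hr of 18/1 it measured 11.26, 11.20, 11.56 and 11.43, and at 90/5 5 hr 11.42, 11.95, 12.20 and 12.08, both overlapping the unstimulated samples. The rise at 18/1 5 hr was called under every setting tried, from 1.53 to 1.98. The rise at 90/5 2 hr was not called without array 1 (adjusted p = 0.172), array 2 (0.0841) or array 8 (0.128).

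The probe sequences for Dnajb6 did not move together. Of 4 sequences that passed the filter, 2 were called higher at 18/1 5 hr (1.84 and 0.95) and the others differed by -0.65 and -1.08. In 90/5 2 hr neurons the 4 sequences differed by 1.28, 0.97, 0.23 and -0.03, with the first 2 called. Which transcripts of the gene each sequence reports is not given in the sources used here. With slide 2 left out of the filter the brightest sequence of Dnajb6 was another one, and it differed by 0.55 (interval -0.24 to 1.33) at 18/1 2 hr. Across the 9 chaperone genes with more than 1 sequence tested, all sequences of a gene had the same sign in 4, 5, 4 and 4 genes at 18/1 2 hr, 18/1 5 hr, 90/5 2 hr and 90/5 5 hr. Hspa4 is the other extreme case, with 0.23, 1.86 and -0.88 at 18/1 5 hr, of which the last 2 were called. Results for a single sequence are therefore results for that sequence.

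**Figure D4:**
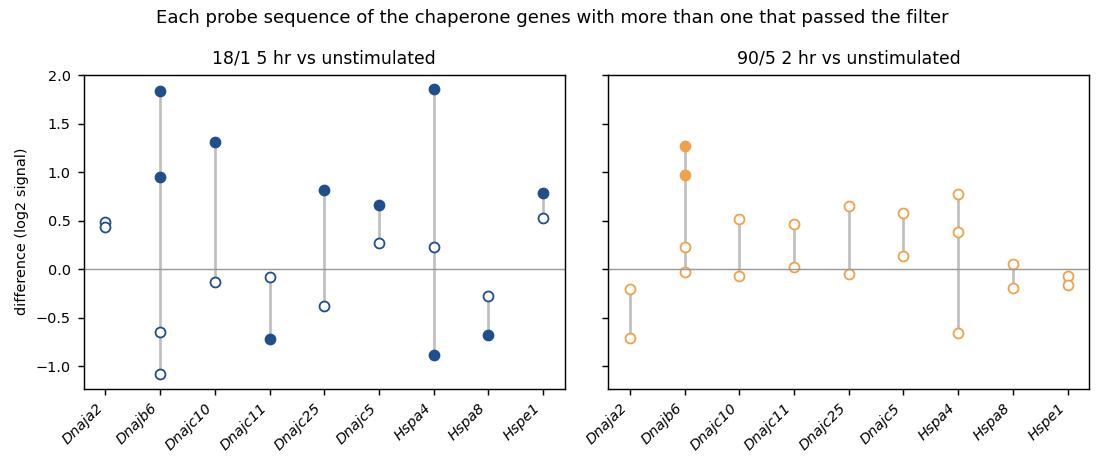
Difference in log2 signal from unstimulated neurons for every probe sequence of the 9 chaperone genes with more than 1 that passed the filter, at 18/1 5 hr and 90/5 2 hr; filled points were called. The 4 sequences of Dnajb6 span from -1.08 to 1.84 at 18/1 5 hr.

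Dnajb14, a J protein anchored in the ER membrane, was the gene called lower at 90/5 2 hr. It measured 11.56, 11.80, 11.47 and 11.96 in unstimulated neurons, 10.50, 10.16, 10.93 and 10.78 at 18/1 5 hr and 10.92, 10.63, 10.28 and 10.10 at 90/5 2 hr. Neither group overlapped the unstimulated one, and Dnajb14 fell by 1.11 (adjusted p = 0.00219) and by 1.21 (adjusted p = 0.00711). The latter was not called without array 1, 2 or 8 (adjusted p of 0.103 to 0.116). A brighter sequence for Dnajb14, which passed only the looser filter, went the other way at 18/1 5 hr (1.46, adjusted p = 0.0013) and differed by 0.30 at 90/5 2 hr. At 90/5 5 hr the first sequence measured 11.19, 11.15, 11.22 and 11.16, again below all unstimulated samples, a difference of -0.51 that was not called (adjusted p = 1.00).

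Dnajb2, a neuronal J protein that escorts ubiquitinated proteins, measured 13.06, 13.06, 13.03 and 13.09 in unstimulated neurons, one of the tightest groups in the set. After 5 hr of 18/1 it measured 11.13, 11.22, 11.74 and 12.00, a fall of 1.54 (SE 0.27, adjusted p = 0.00019) with no overlap. The 90/5 2 hr arrays parted again, with 13.02 and 13.21 on array 7 and 12.17 and 12.27 on array 8, and without array 7 a fall was called (adjusted p = 0.0274). Dnajb2 differed by -0.10 at 18/1 2 hr and at 90/5 5 hr by 0.14. Under every setting tried the fall at 18/1 5 hr was called, with differences from -2.13 to -1.19.

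Dnajb5, known as a nuclear partner of thioredoxin and class II histone deacetylases, was the gene with the lowest unadjusted p at both 18/1 2 hr and 90/5 5 hr. It measured 12.12, 12.05, 11.88 and 11.81 in unstimulated neurons, 11.49, 11.38, 11.69 and 11.29 at 18/1 2 hr and 11.11, 10.81, 11.57 and 11.31 at 90/5 5 hr. All 8 of these stimulated samples were below all unstimulated ones, by 0.50 (SE 0.24, adjusted p = 1.00) and 0.77 (SE 0.24, adjusted p = 0.735). After 2 hr of 90/5 it measured 11.61, 11.55, 11.76 and 11.47, also without overlap (-0.37, adjusted p = 0.374). The 18/1 5 hr samples measured 12.25, 11.97, 11.57 and 11.20, which overlapped, and were called lower without array 5 or with samples centred on their medians. These comparisons share the same unstimulated samples. With the normalization used here and all arrays in the fit, limma called none of these differences.

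When slide 2 was left out of the filter, the normalization and the fit, a choice made after the data were seen, 14902 genes and 57 chaperone genes could be tested. In 18/1 2 hr neurons 0 of 57 were called (6 of 14902 genes in all, or 0.0403%), with 5 at an unadjusted p under 0.05 (7.72% of all genes), and 54 of 57 intervals lay within 1 log2 unit. In 90/5 5 hr neurons 2 of 57 were called, against 457 of 14902 genes (3.07%), with 10 at an unadjusted p under 0.05 (17.9% of all genes), and 52 of 57 intervals lay within 1 log2 unit. Both called genes were lower. Dnajb5 fell by 0.72 (SE 0.15, interval -1.04 to -0.40, adjusted p = 0.0234) and Dnajb14 by 0.49 (adjusted p = 0.0497). Dnajb5 at 18/1 2 hr differed by -0.46 (adjusted p = 0.574). The median over the 57 genes was 0.01 at 18/1 2 hr and -0.01 at 90/5 5 hr. For 90/5 5 hr, slide 3 and the condition still cannot be told apart.

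**Figure D5:**
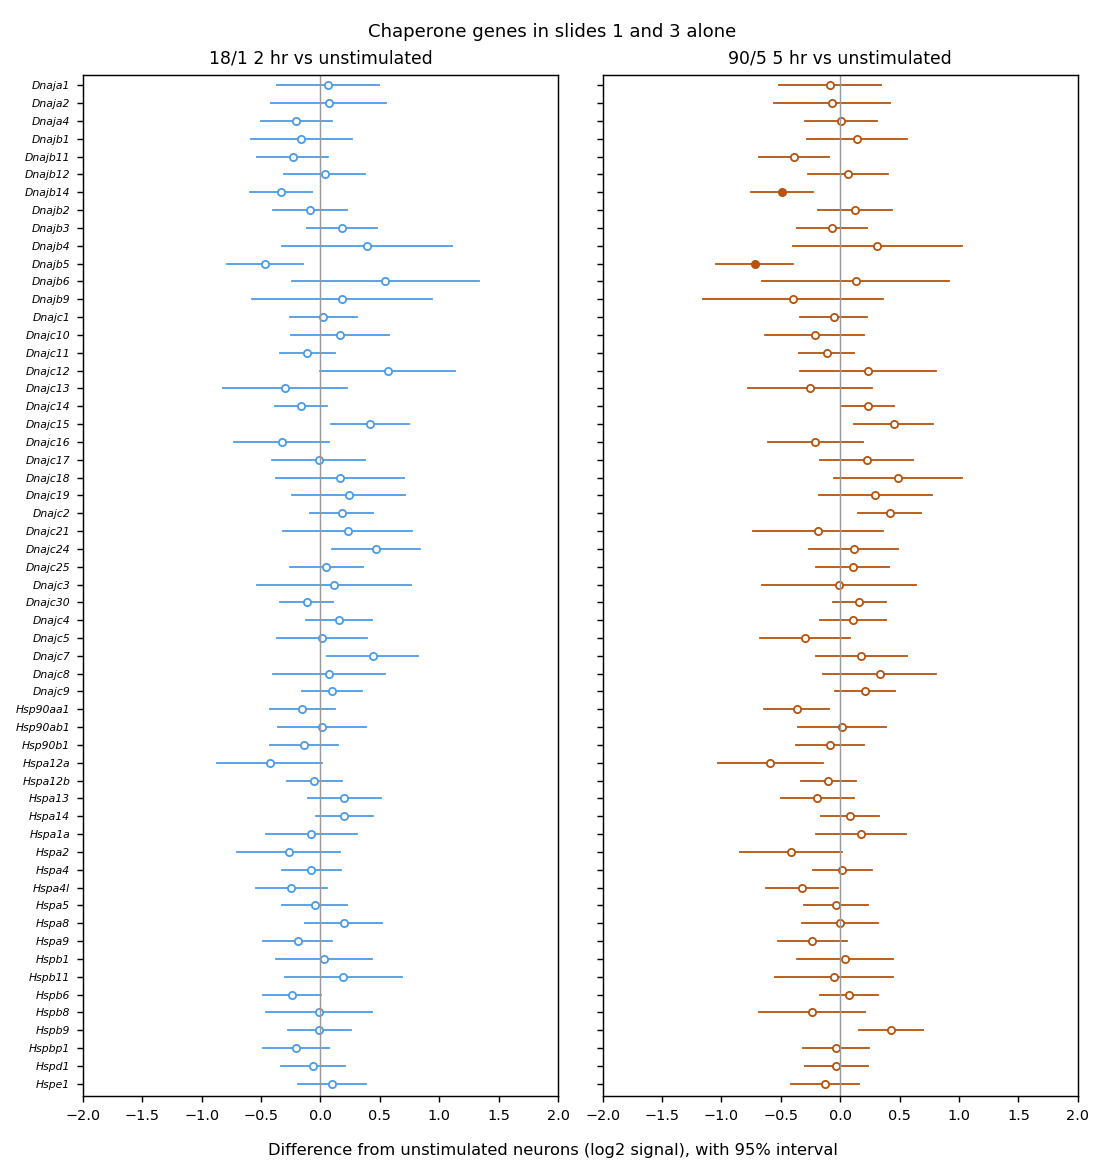
Difference in log2 signal from unstimulated neurons, with 95% intervals from limma, for the 57 chaperone genes that could be tested with slide 2 left out. The points run from -0.46 to 0.57 at 18/1 2 hr and from -0.72 to 0.49 at 90/5 5 hr, where Dnajb5 and Dnajb14 are filled as called.

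The chaperones of the ER were looked at as a group because calcium and glycosylation faults raise them together. Hspa5 (BiP) is the Hsp70 of the ER, Hsp90b1 (Grp94) its Hsp90, and Dnajc3 (p58IPK) and Dnajb9 (ERdj4) are J proteins there. Hspa5, Hsp90b1 and Dnajc3 are the chaperone genes whose promoters hold an ER stress element (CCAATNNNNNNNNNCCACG, on either strand), a motif in 37 of 27025 promoters (0.137%). The stretches are chr2:34771970-34772089 (plus strand) for Hspa5, chr10:86705520-86705669 (minus strand) for Hsp90b1 and chr14:118937776-118937895 (plus strand) for Dnajc3, all GRCm38.p6, with the element in capitals.
Hspa5: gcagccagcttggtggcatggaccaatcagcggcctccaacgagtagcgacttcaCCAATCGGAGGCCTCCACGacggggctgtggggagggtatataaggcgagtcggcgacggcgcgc
Hsp90b1: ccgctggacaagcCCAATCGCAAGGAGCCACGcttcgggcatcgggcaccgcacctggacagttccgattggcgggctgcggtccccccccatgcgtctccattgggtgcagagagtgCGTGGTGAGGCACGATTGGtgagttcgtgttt
Dnajc3: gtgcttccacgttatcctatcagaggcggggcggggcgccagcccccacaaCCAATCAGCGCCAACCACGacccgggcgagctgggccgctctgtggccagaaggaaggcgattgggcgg

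Hspa5 measured 15.63, 15.58, 15.41 and 15.37 in unstimulated neurons, 15.49, 15.55, 15.45 and 15.38 at 18/1 2 hr and 15.58, 15.45, 15.37 and 15.52 at 90/5 5 hr. These 3 groups lay on top of each other, with differences of -0.03 and -0.02 (SE 0.23). After 2 hr of 90/5 it measured 15.99, 16.07, 16.22 and 15.88, above all unstimulated samples but with every sample saturated. The mean of these values lay 0.54 above the unstimulated one, which did not pass the test (adjusted p = 0.158), and the difference was 0.35 with samples centred on their medians. The 18/1 5 hr samples measured 15.63, 15.41, 15.44 and 14.87, also saturated. They were called lower with samples centred on their medians (adjusted p = 0.0197), which gives no size. Hsp90b1 at 90/5 2 hr measured 15.39, 15.31, 16.27 and 15.93, against 14.99, 14.95, 15.15 and 15.06 in unstimulated neurons. This also did not overlap and did not pass (0.69, adjusted p = 0.0979), with both samples of array 8 saturated. Hsp90b1 was called there without array 5, 6 or 7, with 1.06 (adjusted p = 0.00281) in the last case, and measured 0.31 without array 8. Hspa5 was called without array 6. Dnajc3, tested under the looser filter, differed by 0.11, 0.37, -0.02 and -0.01 in the 4 conditions.

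The J proteins of the ER differed among themselves. Dnajb9 measured 9.25, 8.64, 8.85 and 8.43 in unstimulated neurons and 6.98, 6.41, 7.29 and 7.15 at 18/1 5 hr, with both samples of array 5 not well above background. Its measured values lay 1.84 lower (SE 0.46, adjusted p = 0.00326), which does not give the size of the fall. With the looser filter or none, where the other sequence of Dnajb9 stood for the gene, the difference was -0.78 and not called (adjusted p up to 0.367). After 2 hr of 90/5 Dnajb9 measured 8.21, 8.36, 7.55 and 7.00, the last not well above background. The difference of -1.02 (adjusted p = 0.192) is thus not an exact size. It was called lower without array 7 (adjusted p = 0.029) and was -0.51 without array 8. Dnajb11, a J protein of the ER lumen, fell by 0.74 (adjusted p = 0.0273) at 18/1 5 hr and was not called without array 1, 2 or 5. Dnajc10 (ERdj5), a J protein with disulphide reductase activity, rose by 1.31 (SE 0.29, adjusted p = 0.00128), from 12.55, 12.36, 12.42 and 12.41 in unstimulated neurons to 13.28, 13.70, 13.72 and 14.28 with no overlap, the last of them saturated. Dnajc10 at 90/5 2 hr measured 12.72, 12.80, 13.00 and 13.30, again above all unstimulated samples, a difference of 0.52 that was called by the methods' t-test and not by limma (adjusted p = 0.30). Its second sequence differed by -0.13 and -0.07. Dnajc1, of the ER membrane, fell by 1.37 (adjusted p = 0.0042).

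Several chaperones with all 4 samples of a slide 2 group saturated had means above the unstimulated one. At 18/1 5 hr the signal was at least 1.09-fold higher for Dnaja1 (adjusted p = 0.80), 1.21-fold for Dnajc5 (0.451), 1.18-fold for Hsp90b1 (0.462) and 1.26-fold for Hspd1 (0.243). These bounds set the mean of the saturated values against the unstimulated mean. None passed the test with all arrays in the fit, Hspd1 passed without array 6 (adjusted p = 0.0384), and no bound holds with samples centred on their medians, where all 4 lay below unstimulated neurons as did the median of all genes. Relative to that median Hspd1 (0.56 before and 0.69 after centring) and Hsp90b1 (0.47 and 0.45) lay above it in both scalings, and Dnaja1 (0.35 and -0.53) and Dnajc5 (0.50 and -0.15) changed sides. Dnajc5 (cysteine string protein), the J protein of synaptic vesicles, also has a dimmer sequence, which was called higher at 18/1 5 hr (0.66, adjusted p = 0.0479). Dnajc5 differed by 0.01 at 18/1 2 hr and at 90/5 5 hr by -0.21. Dnajc6 (auxilin), which uncoats clathrin vesicles, passed only the looser filter and was called in no condition, with -0.11 at 18/1 2 hr and -0.03 at 90/5 5 hr. It was well above background in only 2 of 4 samples at 18/1 5 hr and 1 of 4 at 90/5 2 hr, so no size is given there.

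Among the class C J proteins, 2 of 13 were called higher at 18/1 5 hr (Dnajc10 and Dnajc25) and 3 lower (Dnajc1, Dnajc4 and Dnajc17), and 0 of 13 in each of the other conditions. Over all genes 44.4% were called there (15.0% higher and 29.5% lower) with a median of -0.23. The class B proteins had 2 higher and 4 lower of 9 at 18/1 5 hr, with a median of -0.74, against a median of -0.02 in class C. The class A proteins had 1 higher of 3. Of the 21 genes that only the looser filter let through, Dnajc2 (1.24) and Dnajc19 (1.85) were called higher at 18/1 5 hr and Dnajb12, Dnajc21 and Dnajc30 lower, leaving out Hspb2, which passed through the groups where it is higher, where 36.8% of all genes were called under that filter. At 90/5 2 hr Dnajc2, a ribosome-associated J protein, was called (0.99), against 5.06% of all genes. At 18/1 2 hr 0 of the 21 were called by limma, against 0.0213% of all genes, and they ran from -0.47 to 0.38. At 90/5 5 hr 0 of the 21 were called, against 0.149% of all genes, and they ran from -0.65 to 0.59. At an unadjusted p under 0.05 there were 0 of the 21 in either condition.

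Chaperones with a 2-unit heat shock element in the promoter window could be compared with those without one. Of 10 with the motif, 4 were called higher at 18/1 5 hr (Hspe1, Dnaja4, Dnajc10 and Dnajb6) and 2 lower (Hspa1a and Hspb8), with a median of 0.23, where 15.0% of all genes were called higher and 29.5% lower with a median of -0.23. Without the motif 4 of 26 were higher and 8 lower, with a median of -0.17. The 2 sets were not tested against each other. Each gene is read here by its brightest sequence that passed the filter. At 18/1 5 hr the other sequences of Dnajb6 differed by 0.95, -0.65 and -1.08, that of Dnajc10 by -0.13 and that of Hspe1 by 0.53. The median of 0.23 lies between Dnaja1 (0.12) and Hspd1 (0.34), both saturated in all 4 samples. With samples centred on their medians these went to -1.35 and -0.13, and Hspe1 to 0.06. Of all 43 chaperones 3 were then called higher and 22 lower, with 52.5% of all genes called. At 18/1 2 hr and 90/5 5 hr the medians of those with the motif were 0.00 and -0.01. Stretches for Dnaja4 (chr9:54699432-54699551, plus strand) and Dnajc10 (chr2:80315228-80315347, plus strand) are shown because the sequence read for each was called higher at 18/1 5 hr, with the elements in capitals (RefSeq, GRCm38.p6).
Dnaja4: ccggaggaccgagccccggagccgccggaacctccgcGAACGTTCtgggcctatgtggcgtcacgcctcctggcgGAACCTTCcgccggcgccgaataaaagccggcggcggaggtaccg
Dnajc10: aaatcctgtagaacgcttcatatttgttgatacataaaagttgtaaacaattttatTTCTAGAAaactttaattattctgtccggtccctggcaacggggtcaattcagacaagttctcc

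The cAMP response element, a site for the activity-dependent factor CREB, was found in 2.03% of all promoters and in 1 chaperone promoter, that of Dnajc27. A match is a description of these windows, and windows of this length do not hold distant elements.

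The patterns were next compared with each other at the same duration, across slides. At 2 hr 1 of 43 chaperone genes differed between 90/5 and 18/1, against 4.96% of all genes. This was Dnajb6, higher in 90/5 by 1.57 (adjusted p = 0.00162), a call lost without array 3 (adjusted p = 0.0747). The value is that of its brightest sequence. Against unstimulated neurons its 4 sequences differed by 1.28, 0.97, 0.23 and -0.03 at 90/5 2 hr. In the same order they differed by -0.30, -0.13, 0.60 and 0.28 at 18/1 2 hr. At 5 hr 14 of 43 differed, against 45.4% of all genes, 6 higher and 8 lower in 90/5. Hspa1a (1.54), Dnajb9 (1.70), Dnajb2 (1.67) and Dnajc1 (1.31) were higher in 90/5, and Hspa4l (-1.70), Dnajb6 (-1.58), Dnajc10 (-1.55) and Hspb11 (-1.26) were lower. The sequences of Dnajb6, in the order above, differed from unstimulated neurons by 1.84, 0.95, -0.65 and -1.08 at 18/1 5 hr. At 90/5 5 hr they differed by 0.25, -0.54, 0.15 and 0.21. With saturated spots left out another sequence stood for Dnajc10, and its difference turned to 0.09. Hspa1a and Dnajb9 were not well above background in both samples of array 5, 2 of the 4 at 18/1 5 hr, so their values are not exact sizes. Hspa4l was saturated in 2 of the 4, so its difference may be larger than measured. The call for Dnajb9 was lost without array 9 (adjusted p = 0.0669), and with the looser filter or none, where its other sequence was read, the difference was 0.36 (adjusted p up to 0.696). These comparisons share the 18/1 5 hr samples with those above, and with samples centred on their medians 26 were called, 23 of them higher in 90/5, with 59.3% of all genes called.

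Within slide 2, where time and pattern both differ, 6 of 43 chaperone genes were called between 90/5 2 hr and 18/1 5 hr, against 12.9% of all genes. Dnajb2 (1.14, adjusted p = 0.0128) and Dnajc17 (1.06, 0.0161) were higher in 90/5 2 hr, and Hspa4l (-1.15, 0.0128), Dnaja4 (-0.89, 0.0499) and Hspe1 (-0.86, 0.0454) lower. These 3 had 2, 2 and 3 saturated samples of 4 at 18/1 5 hr, and Hspe1 also 1 at 90/5 2 hr, and with samples centred on their medians the difference of Hspe1 turned to 0.49. The remaining one, Hspa5, was saturated in all samples of both groups, so its call measures no difference. The count was 0 with array 7 left out, 2 with array 5 left out, 14 with array 6 or with array 8 left out, and 3 with any 1 array of slides 1 and 3 left out. The share of all genes called was 0.550%, 4.24%, 34.4% and 33.5% without array 7, 5, 6 or 8. With samples centred on their medians the count was 20, all of them higher in 90/5 2 hr, and 47.8% of all genes were called.

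Genes of the stress pathways outside the name rule were followed in lists that were fixed with earlier results of these data known. Of a list of 17 other heat shock response genes, 12 were tested, and 0 were called at 18/1 2 hr and 0 at 90/5 5 hr, with medians of -0.06 and 0.00. At 18/1 5 hr 3 were called, all lower (Hsph1, the nucleotide exchange factor Hsp110, by 1.05, Stip1, which joins Hsp70 to Hsp90, by 2.01, and Atf3, a transcription factor of stress and injury, by 1.41), and the median was -0.23, as over all genes. Across the whole array 29.5% had a call as lower in that comparison, so 3 of 12 is not a larger share. At 90/5 2 hr 1 was called, Fkbp4 (0.90), an immunophilin of the Hsp90 machine. Of 27 genes of the unfolded protein response 20 were tested, with 0 called at 18/1 2 hr and 90/5 5 hr. At 18/1 5 hr 6 were called higher, among them Xbp1 (1.28) and Derl1 (1.47), and 3 lower (Calr by 1.29, Sdf2l1 by 1.23 and Manf by 1.11), 9 of 20 where 44.4% of all genes were called. At 90/5 2 hr Derl1 was called higher (1.16) and Calr, the lectin chaperone calreticulin, lower (-1.12).

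Of 33 other cochaperones 27 were tested, with 5 higher and 7 lower at 18/1 5 hr, 3 higher and 1 lower at 90/5 2 hr, and 0 in the other conditions. Of all genes 44.4% were called at 18/1 5 hr and 6.97% at 90/5 2 hr. Of 14 genes of oxidative and metal stress 12 were tested, and only Gclc at 18/1 5 hr (higher) and Txnrd1 at 90/5 2 hr (lower) were called. For contrast, 14 genes of the rapid response to activity were followed, of which 6 were tested. This list too was chosen with earlier results of these data known, so its rises are not an independent check. Here 2, 4, 5 and 4 of 6 were called higher at 18/1 2 hr, 18/1 5 hr, 90/5 2 hr and 90/5 5 hr, and none lower. The shares of all genes called were 0.0193%, 44.4%, 6.97% and 0.0676% in that order. Nr4a1, an orphan nuclear receptor induced by firing, rose by 4.54, 4.44, 4.76 and 5.51 in that order. Rgs2, a regulator of G protein signalling, rose by 3.27, 3.63, 3.45 and 3.96.

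Markers of cell types were read in the same samples, since fewer cells of a type and less RNA per cell cannot be told apart in bulk RNA. All 12 DRG neuron markers were well above background in all 20 samples, and at 18/1 5 hr Tac1, the gene of substance P, was called higher. The median difference of the 11 tested was -0.26 there, against -0.23 over all genes. Means of Prph (15.88 against 16.27), Nefl (15.72 against 16.27), Nefm (15.69 against 16.10) and Pou4f1 (14.86 against 15.28) were lower than in unstimulated neurons. Those of Tubb3 (16.23 against 15.82) and Isl1 (13.35 against 12.47) were higher. Of 8 spinal cord markers 2 were above background in all samples (Mog and Aldh1l1) and 0 could be tested. Spinal cord markers summed to 10.68 to 12.08 on the log2 scale at 18/1 5 hr against 10.30 to 10.60 in unstimulated neurons, without overlap, and the mean of Mog, a gene of oligodendrocyte myelin, was 10.37 against 8.50. Of the other 7, Chat (8.15 against 6.97), Aldh1l1 (8.41 against 8.06), Olig1 (7.22 against 7.08) and Olig2 (7.03 against 6.76) also had higher means there, and Gfap (6.81 against 7.56), Pax2 (6.89 against 7.19) and Mnx1 (6.43 against 6.59) lower ones. Of the Schwann and satellite cell markers 6 of 8 were above background in all samples and 0 of 2 tested were called, and of the macrophage markers 4 of 5, with 0 of 2 called. Fibroblast markers, of which 5 of 6 were above background in all samples, summed to 16.0 to 16.2 on the log2 scale at 18/1 5 hr against 14.1 to 15.4 in unstimulated neurons, and Col1a1 was called higher there (1.79). Endothelial markers, of which only Kdr of 4 was above background in all samples, summed to 9.39 to 9.89 at 18/1 5 hr and 10.01 to 10.98 at 90/5 2 hr, below the 11.21 to 11.75 of unstimulated neurons, and to 11.88 to 12.57 at 90/5 5 hr, above them. Pecam1 was called lower at 18/1 5 hr (-1.35), and Kdr could not be tested. The part of these shifts in the chaperone differences was not tested.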

How the data were processed

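For each spot of the 10 two-colour Agilent arrays, the authors deposited the mean intensity and the median intensity of the local background in each colour, as linear values before any normalization. The other 36 columns of values per colour, such as signals already corrected by the scanner software, were not used. The file headers give versions 10.7.1.1 (slide 1) and 10.7.3.1 (slides 2 and 3) of Agilent Feature Extraction, and the study's methods another one.

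In R 4.3.3 with limma 3.58.1, background was subtracted by normexp (offset 50), colours were normalized within arrays by loess with control spots at weight 0 and arrays were scaled by Aquantile. Spots of one probe were averaged. The model had a mean for each condition, a colour term and the array as a random block (correlation 0.529), with empirical Bayes moderation. All 10355 genes were fitted and adjusted together. The fit was tested on simulated data. For 18/1 2 hr against unstimulated neurons it recovered 8%, 44% and 96% of genes raised by 0.5, 1 and 2 log2 units. Of genes lowered by 1 it recovered 54%. Figures were drawn with matplotlib 3.10.9.

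The chaperone genes and the lists (heat shock response, unfolded protein response, other cochaperones, oxidative and metal stress, rapid activity response, cell type markers) were chosen with earlier results of these data known. The genes named are the canonical inducible and organelle chaperones and the neuronal cochaperones Dnajc5, Dnajc6 and Dnajb5, whatever their values, in each comparison with unstimulated neurons the 3 called genes that rose most and the 3 that fell most, and every called gene where 5 or fewer were called. Other members with values were named after those were seen.

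All 72 names match a mouse gene symbol of RefSeq. The probe coordinates in the files name no build, and 8 of 72 lie inside the GRCm38 gene of that name, so no probe position is given. Samples of the same replicate number in unstimulated and 18/1 2 hr neurons deviated together (correlations 0.411 to 0.716 in 4 pairs), and a block for the number changed no call there (0 of 43). The labels do not settle the colour of each replicate of 18/1 5 hr and 90/5 2 hr, so those samples are listed by array. Precision is limited by having 2 arrays per condition. Alternatives covered background, normalization, filter, saturated spots, probe choice, model terms, the methods' t-test (p under 0.05, fold of at least 1.4 and above each gene's own limit, its exact form assumed), and leaving out each sample, each array and slide 2. The result of 1 cell type marker is not reported here.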

Additional observations from a re-analysis of the deposited data

Results flagged for a closer look

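In 3 of 100 groups of 4 samples examined, 1 sample lay far from the others, where chance gives about 1 in 20. Hspd1 in unstimulated replicate 1 measured 14.89 against 14.78 to 14.80 in the others, a gap of 0.845 of the whole range. Hsp90b1 in 90/5 5 hr replicate 3 measured 15.26 against 14.86 to 14.90 (a gap of 0.894 of the range). Dnajc5 in the same sample measured 15.62 against 15.15 to 15.23 (a gap of 0.834).

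The patterns differed at the same duration, by limma's test of the difference itself, in Dnajb6 at 2 hr (90/5 minus 18/1, 1.57, adjusted p = 0.00162). At 5 hr 14 of 43 chaperones differed, against 45.4% of all genes, among them Hspa1a (1.54, adjusted p = 0.00114), Hspe1 (-0.90, 0.0124, with 3 of 4 samples saturated at 18/1 5 hr, not called without array 5, 9 or 10, and 0.0262 with samples centred on their medians), Hspa4l (-1.70, 6.85e-05), Dnajb2 (1.67, 7.46e-05), Dnajc10 (-1.55, 0.00027), Dnajb9 (1.70, 0.00531) and Dnajb6 (-1.58, 0.000148). Of the 4 samples at 18/1 5 hr, 2 were saturated for Hspa4l and 1 for Dnajc10, and 2 were not well above background for Hspa1a and Dnajb9. The values of these genes are therefore not exact sizes. For Dnajb6 both values are those of its brightest sequence, and its 4 sequences did not move together. At each duration the 2 patterns lay on different slides, so pattern and slide cannot be told apart in these differences.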

How the results depend on the processing

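At 18/1 2 hr the count of called chaperones was 0 under every setting of the limma fit, the replicate block and each left-out sample and array included (0 to 0), and 3 by the methods' t-test, of which 0 remained after Benjamini-Hochberg adjustment. At 90/5 5 hr it was 0 to 0 over left-out samples and arrays, 2 by the t-test, 2 with the replicate block (Dnajb5 and Dnajb14, with adjusted p of 0.0223 and 0.0403, although same-numbered samples did not all deviate together there, with correlations from -0.05 to 0.48), 2 without slide 2 in the fit and 2 without it in the filter, normalization and fit, where 570 genes in all were called by the t-test and 4.54%, 2.48% and 3.07% under the other settings. Over left-out samples and arrays the count ran from 9 to 21 at 18/1 5 hr, from 0 to 12 at 90/5 2 hr, from 0 to 9 for 90/5 2 hr against 18/1 2 hr, from 0 to 14 for 90/5 2 hr against 18/1 5 hr and from 10 to 22 for 90/5 5 hr against 18/1 5 hr. With 2 called at 90/5 2 hr, the count was 0 with no spot filter, 8 without the array block, 0 with the colours of an array averaged, 8 by the t-test and 0 by the adjusted t-test, where 1.63%, 22.2%, 1.98%, 20.5% and 0.657% of all genes were called. For 90/5 2 hr against 18/1 2 hr it was 2 without the colour term, 7 without the array block, 7 by the t-test and 0 after adjustment (4.97%, 17.6%, 16.8% and 0% of all genes). For 90/5 2 hr against 18/1 5 hr it was 20 with samples centred on their medians, 3 with saturated spots left out, 14 without the array block, 0 with colours averaged, 0 when only the 2 conditions were fitted and 0 by the adjusted t-test (47.8%, 12.9%, 33.0%, 0%, 0% and 0% of all genes). For 90/5 5 hr against 18/1 5 hr it was 26 with median centring, 22 with the filter within a condition and 8 by the adjusted t-test (59.3%, 38.2% and 29.1% of all genes). Median centring moved the median of the chaperones at 18/1 5 hr to -0.86, and that of 90/5 2 hr and of 90/5 5 hr against 18/1 5 hr to 0.94 and 0.91. The sign turned with median centring for Dnaja1 (-1.35) and Dnajc5 (-0.97) at 18/1 5 hr and for Hspe1 in 90/5 2 hr (0.49) and 90/5 5 hr (0.0262) against 18/1 5 hr. It turned with saturated spots left out for Dnajc10 at 18/1 5 hr (-0.13) and in 90/5 5 hr against 18/1 5 hr (0.0915), and with the filter within a condition or none for Dnajb14 at 18/1 5 hr (1.46 and 1.46) and 90/5 2 hr (0.30 and 0.30), where another sequence stood for the gene. The cause of the other moves was not tested. Of 1005 values of called named results under other settings, 879 kept direction and call, 118 kept direction alone and 8 turned. Of 3118 values of uncalled ones, 3076 stayed uncalled, 40 became called and 2 became called with the opposite sign. The settings share most of their samples, so these values are not independent checks. Some could hardly move, such as Hspa5 in 90/5 2 hr against 18/1 5 hr, which stayed at 0.70 without array 1, outside that comparison.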
